A study of Mus musculus with 12 samples.

Results

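The 2 control lentiviruses of a study of Dnmt3a in fat cells were compared with each other: GFP, an expression vector (pCDH) that carries green fluorescent protein, and shScr, a vector that expresses a scrambled short hairpin RNA. Members were chosen by their labels alone, which gave 6 of the 12 RNA-seq libraries of the series, 3 per group. The cells were 3T3-L1 adipocytes, a mouse preadipocyte line that was differentiated in culture with an induction cocktail and insulin, and every library came from mature adipocytes transduced on day 8 of differentiation with virus made in 293T cells. The labels give 2 days with virus and harvest 4 days after transduction, whereas the methods give 24 hr of contact. The other 6 libraries, used here only for comparison, carried Dnmt3a in pCDH or a hairpin against Dnmt3a (shDnmt3a), again 3 each. The controls thus differ in vector backbone, in insert (a foreign protein against a hairpin RNA) and in virus preparation, and these and any difference in handling cannot be told apart. No untransduced cells were among the samples, so neither control can be called the baseline. The scrambled hairpin's sequence stands in none of the sources read for this work, so it is not shown.

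A hairpin vector makes double-stranded RNA that Dicer and Argonaute proteins process. Cells sense double-stranded RNA and viral nucleic acids through RIG-I (Ddx58), MDA5 (Ifih1), Toll-like receptor 3 (Tlr3) and protein kinase R (Eif2ak2), and the adaptor Mavs passes the signal to Tbk1 and to interferon regulatory factors, which switch on type I interferon. Interferon acts through the receptor Ifnar1 and Ifnar2, the kinases Jak1 and Tyk2 and factors such as Stat2 and Irf9, which bind the interferon-stimulated response element (ISRE) in the promoters of antiviral genes. Immediate early genes such as Fos and Egr1 are transcribed within minutes of a growth factor, serum or mechanical stimulus, many of them through serum response factor (Srf), and decay as fast. Mature adipocytes store triglyceride in droplets coated by perilipin, take up glucose through GLUT4 (Slc2a4) under insulin and seldom divide.

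Libraries held 34796944 to 47341091 counts with GFP and 30406492 to 37403514 with shScr, and the 10 most abundant features took 11.4 to 12.2% of them with GFP and 9.85 to 10.5% with shScr. Adipocyte markers were abundant in both: their summed level was 25460–26670 CPM (counts scaled to library size, with trimmed mean of M values factors, TMM) with GFP and 22210–23070 with shScr, so that the groups did not overlap. Of 12 adipocyte markers 4 were higher and 5 lower with shScr, with a median log2 fold change of −0.07. Of 18 macrophage and leukocyte markers in the annotation, Emr1, Laptm5 and Tyrobp had no count in any library, but 10 were abundant enough to be tested. The list summed to 27.5–28.4 CPM with GFP and 33.6–36.0 CPM with shScr, so such transcripts were scarce but not absent. Adipocyte, preadipocyte and other marker lists move with some results, and in bulk cultures fewer cells of a type and less RNA per cell cannot be told apart. Whether replicates were grown as separate cultures is not stated, and the p-values may then rest on technical spread alone.

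Of 27473 features, 14133 passed the filter on low counts and were tested by edgeR's quasi-likelihood test, and 6387 were called at a Benjamini-Hochberg adjusted p under 0.05. This is 45.2% of those tested, 3251 higher (23.0%) and 3136 lower (22.2%) with shScr, so single members of a list have to be read against a background in which nearly every other feature was called. Most differences were small: the median absolute log2 fold change over all features was 0.189, and 4652 called features (72.8%) differed by less than 0.5. A log2 difference of 1 or more in size was reached by 552 called features (3.91% of those tested), 203 of them higher (1.44%) and 349 lower (2.47%), and one of at least 2 by 15 higher and 61 lower features. For 7421 features (52.5%) the libraries of the 2 groups did not overlap in CPM. The median log2 fold change over all tested features was −0.01, against which every list is read. Of the strongly different features, 58 of the 203 higher (28.6%) and 111 of the 349 lower (31.8%) belonged to 1 of the 50 gene lists described here. The share of all tested features in these lists was not counted, so the 2 shares have no background and only describe coverage. Unless a sentence says otherwise, fold changes are shScr over GFP on the log2 scale with their standard error (SE), values of single libraries are TMM-scaled CPM for replicates 1, 2 and 3, and adjusted p are those of edgeR's quasi-likelihood test.

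Dnmt3a, the DNA methyltransferase that the study altered, was not a target of either control. Its level was 93.2, 90.7 and 96.6 CPM in the GFP libraries and 81.2, 86.2 and 78.5 CPM in the shScr libraries. The shScr libraries were the lower and the groups did not overlap, but the difference was small (log2 −0.18, SE 0.046, edgeR adjusted p = 0.00235). In the libraries where Dnmt3a was altered its level was 2730–2776 CPM with the Dnmt3a vector and 39.4–41.0 CPM with shDnmt3a, which fits those labels. Of the 16 tested genes of the DNA methylation machinery 7 were lower and none higher with shScr (median −0.18). Uhrf1, which brings the maintenance methyltransferase to replicated DNA, fell by 1.05 on the log2 scale (SE 0.084, adjusted p = 1.00e-09), from 12.4–13.6 to 5.89–6.36 CPM, and Dnmt1, that maintenance enzyme, differed by −0.32 (SE 0.05, adjusted p = 1.66e-05).

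Genes of the interferon system were higher with shScr as a group. Over the lists of sensors, ligands and receptors, signal transduction, antiviral effectors and GTPases, 78 of 97 tested genes were higher, 10 lower and 9 not called, with a median log2 fold change of 0.73, and in 88 of 97 the groups did not overlap. The plot of gene lists shows these lists, except ligands and receptors, which were not drawn, with medians to the right of 0.

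**Figure D1:**
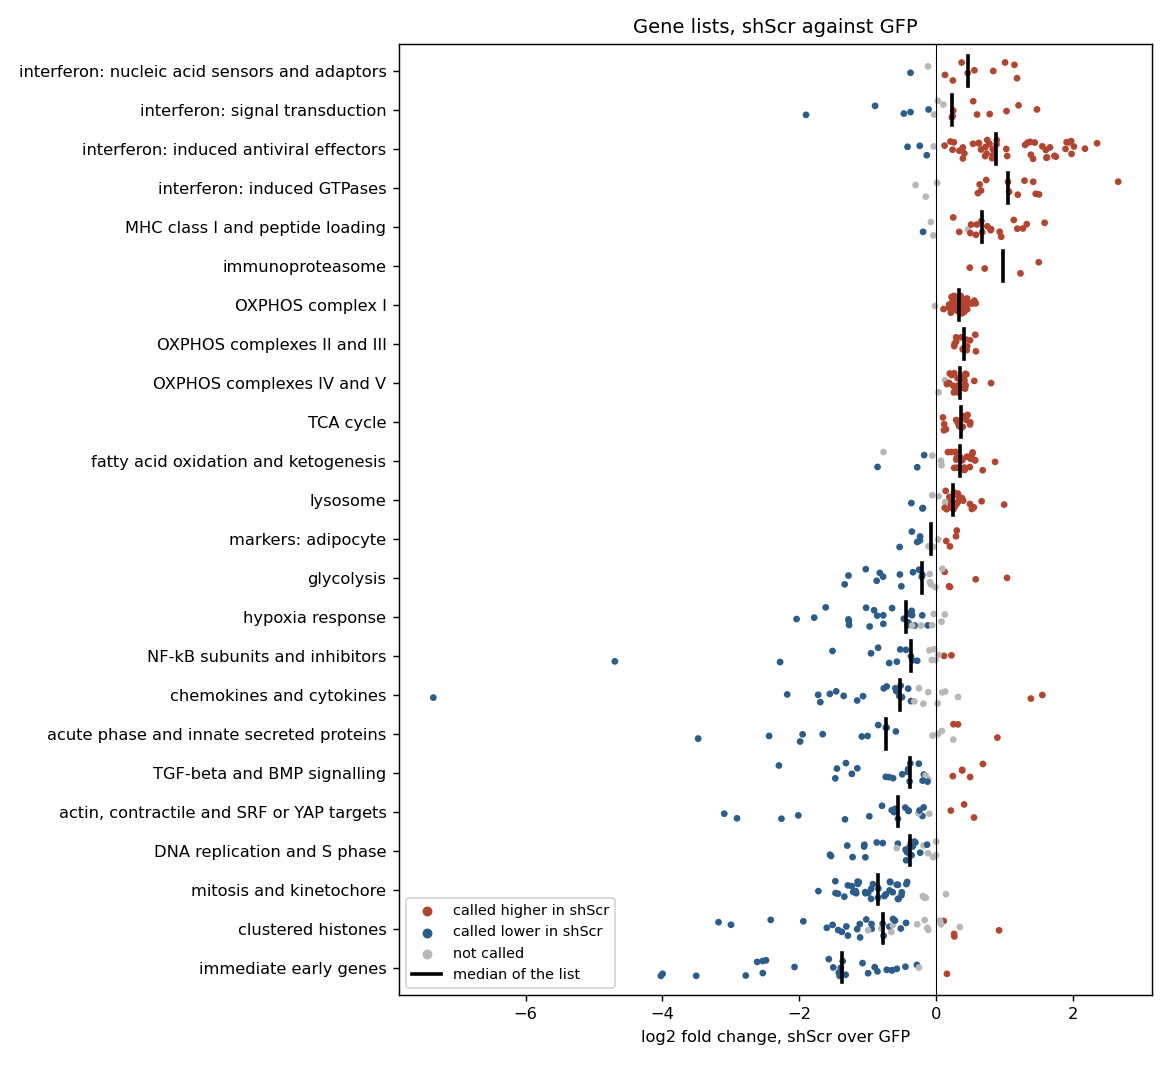
Log2 fold change of shScr over GFP (x axis) for the tested members of 24 gene lists (rows); each point is a gene, red where called higher, blue where called lower and grey where not called, and the black bar is the list's median. Interferon, MHC class I and mitochondrial lists lie to the right of 0, and immediate early, mitotic, chemokine and hypoxia lists to the left; the lowest point of the chemokine row, Csf2, had no count with shScr and is drawn at its fitted value, which is no bound.

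Among the sensors of nucleic acids, 9 of 11 tested genes were higher and 1 lower (median 0.47). Dhx58 (LGP2), a relative of RIG-I that modulates it, was at 44.3, 44.5 and 44.9 CPM in the GFP and 99.1, 101 and 103 CPM in the shScr libraries. Ddx58 (RIG-I) was at 138, 139 and 139 CPM and 247, 246 and 250 CPM. In both genes every shScr library was higher than every GFP library and the replicates of a group lay close together. The log2 fold changes were 1.19 for Dhx58 (SE 0.042, adjusted p = 8.44e-16) and 0.84 for Ddx58 (SE 0.039, adjusted p = 8.16e-14). Among sensors picked after their values were seen, Zbp1, a sensor of Z-form nucleic acids, had a log2 fold change of 1.15, Ifih1 of 1.01, Adar, which edits double-stranded RNA, of 0.56, Eif2ak2 of 0.47 and Tlr3 of 0.38, whereas the adaptor Mavs differed by 0.13. The exception was Tmem173 (STING), the adaptor of cytosolic DNA sensing, which was lower with shScr (9.57, 8.62 and 8.93 CPM) than with GFP (10.9, 11.5 and 12.9 CPM). Its log2 fold change was −0.37 (SE 0.085, adjusted p = 0.00111).

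Interferon transcripts themselves were at or near the detection limit. Ifnb1, the first interferon made by most cells that sense virus, had no count in the GFP libraries and 2, 1 and 4 counts in the shScr libraries, 7 in all, too few to pass the filter. Ifna1 and Ifng had no count in any library; these 3 genes were picked for their role. All 3 tested receptor genes that rose did so by little, led by Il10rb, a receptor chain for interferon lambda and interleukin 10, at 0.25 (SE 0.049, adjusted p = 0.000236; 46.1–50.1 CPM with GFP, 54.5–58.1 CPM with shScr). Ifngr1, the ligand-binding chain of the interferon gamma receptor, was lower, at 82.1, 75.5 and 79.6 CPM with shScr against 101, 106 and 105 CPM with GFP (log2 −0.39, SE 0.044, adjusted p = 2.33e-07).

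Signal transducers split: 9 of 17 tested genes were higher and 5 lower (median 0.23). Usp18, a protease that removes ISG15 and dampens interferon signalling, was at 37.4, 38.7 and 37.4 CPM with GFP and 105, 102 and 108 CPM with shScr. Irf7, the factor that amplifies interferon production, was at 39.7, 37.9 and 39.0 CPM and 87.4, 89.3 and 91.7 CPM. Neither gene overlapped between groups, and the log2 fold changes were 1.48 (SE 0.044, adjusted p = 3.54e-17) and 1.21 (SE 0.045, adjusted p = 1.46e-15). Stat2 and Irf9, parts of the factor that binds the ISRE, were picked after their values were seen and had log2 fold changes of 1.03 and 0.60. Against them, Socs3, an inhibitor of cytokine signalling that interleukin 6 induces, fell by 0.89 (SE 0.08, adjusted p = 6.32e-09), from 13.5–14.2 to 7.13–7.93 CPM. Jak2 (log2 −0.47, adjusted p = 1.35e-08), Irf2, a repressor of interferon genes (−0.37, adjusted p = 0.000557), Jak1 (−0.11, adjusted p = 0.0281) and Irf5 (−1.90, adjusted p = 0.00101) were also lower. Irf5 was scarce, at 0.420–0.621 CPM with GFP and 0.0324–0.201 CPM with shScr, and the call of Jak1 was lost when GFP replicate 1 or 3 or shScr replicate 1 or 3 was left out.

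Effectors were the list with the most called members in the interferon group: 45 of 49 tested genes were higher and 3 lower, with a median of 0.89. Their summed level was 2864, 2882 and 2847 CPM in the GFP libraries and 5367, 5216 and 5333 CPM in the shScr libraries. Bst2 (tetherin), which holds budding virions on the cell, was at 57.7, 60.2 and 57.8 CPM with GFP and 228, 225 and 239 CPM with shScr, and Ifit3, which binds viral RNA together with Ifit1, at 77.1, 79.5 and 75.4 CPM and 288, 278 and 293 CPM. For both genes the groups were far apart in comparison with the spread between replicates. Log2 fold changes were 1.98 for Bst2 (SE 0.044, adjusted p = 3.92e-19) and 1.90 for Ifit3 (SE 0.043, adjusted p = 3.92e-19). Apol9b and Apol9a, interferon-induced apolipoprotein L genes, rose by 2.36 (SE 0.068) and 2.02 (SE 0.064), from 6.69–7.67 to 37.3–37.7 CPM and from 8.98–9.93 to 37.9–39.8 CPM (adjusted p = 2.28e-17 and 1.11e-16). Oas1g, an oligoadenylate synthetase that activates RNase L, rose by 2.18 (SE 0.089, adjusted p = 7.72e-15), from 3.44–4.12 to 16.6–17.1 CPM. Apol9a and Apol9b, and the Oas1 genes, are near-identical copies, so the split of reads between them is uncertain. Of effectors picked after their values were seen, Isg15, a ubiquitin-like modifier, had a log2 fold change of 1.75, Ifit1 of 1.73, Rsad2 (viperin) of 1.67, Oas2 of 1.61 and Mx1, a GTPase that blocks influenza, of only 0.54. The 3 effectors that were lower were Isg20, an RNA exonuclease (log2 −0.41, SE 0.107, adjusted p = 0.00304), Ifi204 (−0.24, SE 0.047, adjusted p = 0.000302) and Samhd1, which depletes nucleotides and so limits reverse transcription (−0.13, SE 0.047, adjusted p = 0.0234; not called without GFP replicate 2 or 3 or shScr replicate 3).

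Promoter sequence was looked at for what the effectors share. For 40 of the 49 tested effectors RefSeq (GRCm38.p6, a later build than the mm9 of the counts) gave a promoter, taken as the 250 bases before each annotated start, and 19 of their 50 promoters (38.0%) held the ISRE letters on either strand, which are GAAA and GAAA with any 2 bases between them. Of all 32851 promoters given by RefSeq, 978 (2.98%) did. The effector list was drawn up from interferon-induced genes, so its share says nothing about the difference between the controls. The stretches shown are for genes at the top of the comparison, 5′ to 3′ on the gene's strand, with the matches in capitals (TTTC in place of GAAA where the match is on the opposite strand, and overlapping matches run together).
Ifit3, chr19:34583363-34583426, plus strand: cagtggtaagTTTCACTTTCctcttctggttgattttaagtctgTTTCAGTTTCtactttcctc
Bst2, chr8:71537553-71537612, minus strand: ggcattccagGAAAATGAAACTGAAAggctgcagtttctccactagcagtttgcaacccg
Isg15, chr4:156200847-156200906, minus strand: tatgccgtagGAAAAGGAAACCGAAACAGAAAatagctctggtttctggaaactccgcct
Gbp3, chr3:142559989-142560043, plus strand: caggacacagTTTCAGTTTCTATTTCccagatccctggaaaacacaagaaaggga
Apol9b, chr15:77729025-77729071, plus strand: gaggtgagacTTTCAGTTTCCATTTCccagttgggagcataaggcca
Ifit3 and Bst2 held 2 matches each and Isg15 held 3. In Isg15, Bst2, Gbp3 and Apol9b neighbouring matches overlapped, while the pair in Ifit3 stood apart. Another RefSeq promoter of Gbp3 held no match. No match lay in the window of Irf7 or of the effector Oasl2, which was picked, although both were higher with shScr, which says only that these letters are not in those windows.

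Interferon-induced GTPases, which attack the membranes around intracellular microbes, were higher in 12 of 15 tested genes and lower in none (median 1.05). Gbp10 had the highest log2 fold change of all genes named by the rule, 2.67 (SE 0.126, adjusted p = 1.15e-13), from 1.99, 1.37 and 1.64 CPM in the GFP libraries to 11.1, 11.2 and 9.58 CPM in the shScr libraries. Gbp3 rose from 83.4, 86.4 and 89.3 to 239, 224 and 228 CPM (log2 1.42, SE 0.044, adjusted p = 7.31e-17). Gbp4 rose from 64.6, 67.6 and 66.4 to 169, 153 and 164 CPM (log2 1.30, SE 0.046, adjusted p = 8.44e-16), but its symbol is carried by more than 1 feature. The family is not uniform: Gbp5, Gbp11 and Gbp8, picked because they were the 3 that were not called, had log2 fold changes of −0.30, −0.15 and 0.02. Sequence similarity within the family makes the split of reads between Gbp genes uncertain.

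MHC class I and its loading machinery, which display peptides to T cells, were higher in 18 of 22 tested genes and lower in 1 (median 0.67). H2-D1, a classical class I heavy chain, was at 1418, 1402 and 1413 CPM with GFP and 2734, 2653 and 2790 CPM with shScr, and the nonclassical H2-T10 at 43.9, 46.8 and 42.5 CPM and 112, 108 and 113 CPM. Neither overlapped between groups. The log2 fold changes were 0.96 (SE 0.032, adjusted p = 2.44e-16) and 1.33 (SE 0.045, adjusted p = 3.70e-16). Picked after their values were seen, B2m, the light chain, differed by 0.67, the peptide transporter genes Tap1 and Tap2 by 0.80 and 0.75, and Nlrc5, the transactivator of class I genes, by 0.68. The one lower member, Calr, also picked, is a general chaperone of the endoplasmic reticulum (log2 −0.19). All 4 immunoproteasome genes were higher (median 0.97); Psmb9, an inducible catalytic subunit, rose from 4.80, 5.09 and 4.67 to 11.2, 11.6 and 11.4 CPM (log2 1.24, SE 0.088, adjusted p = 1.25e-10) and Psmb10 by 0.71 (SE 0.052, adjusted p = 1.70e-10). H2 genes are close copies of each other and strain alleles differ, so their single values are uncertain.

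Mpeg1, a pore-forming protein of macrophages that interferon also induces, rose from 3.04, 3.40 and 3.51 to 17.6, 17.6 and 18.1 CPM (log2 2.43, SE 0.088, adjusted p = 1.01e-15). It was the 1 macrophage and leukocyte marker of 10 tested that was higher, against 5 lower. The summed level of that list was 27.5–28.4 CPM with GFP and 33.6–36.0 CPM with shScr, and without Mpeg1 it was 24.6, 24.1 and 24.9 CPM with GFP and 18.3, 15.9 and 17.4 CPM with shScr. Cd74, the invariant chain of MHC class II, was lower, at 5.43, 5.09 and 5.13 CPM with GFP against 2.41, 1.58 and 2.43 CPM with shScr (log2 −1.30, SE 0.145, adjusted p = 1.74e-07). The direction of the list without Mpeg1 was thus opposite to that of the interferon lists.

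Genes that process small RNAs did not move as a list. Of 14 tested 3 were higher and 3 lower (median −0.03). Tarbp2, the partner of Dicer, rose by 0.36 (SE 0.056, adjusted p = 1.56e-05), from 24.9–27.1 to 32.8–33.1 CPM. Hsp90aa1, a chaperone that loads Argonaute among many other clients, fell by 0.34 (SE 0.036, adjusted p = 7.99e-08), from 638–654 to 493–522 CPM. Dicer1 was not called (log2 −0.07, SE 0.046, adjusted p = 0.218), and neither was Dgcr8 (log2 −0.04, adjusted p = 0.513); both were picked after their values were seen.

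Immediate early genes had the median farthest from 0 of the 50 lists: 26 of 28 tested genes were lower with shScr, 1 was higher, and the median was −1.38. Their summed level was 945, 937 and 939 CPM in the GFP libraries and 397, 429 and 437 CPM in the shScr libraries. Egr1, a zinc finger factor, was at 40.1, 41.5 and 38.7 CPM with GFP and 2.01, 2.60 and 2.78 CPM with shScr, and Fos, a subunit of AP-1, at 26.6, 24.4 and 27.3 CPM and 1.55, 1.66 and 1.68 CPM. Both were low in every shScr library, and the group means lay 16.2-fold apart for Egr1 and 16.0-fold apart for Fos. Egr1 fell by 4.02 (SE 0.09, adjusted p = 3.92e-19) and Fos by 4.00 (SE 0.098, adjusted p = 1.09e-18) on the log2 scale. Egr2 went from 17.7, 16.6 and 17.7 to 1.38, 1.60 and 1.59 CPM (log2 −3.50, SE 0.105, adjusted p = 3.75e-17), and Atf3, a stress-induced repressor, from 10.3, 10.7 and 9.80 to 1.83, 1.45 and 1.17 CPM (log2 −2.78, SE 0.128, adjusted p = 6.60e-14). Junb, another AP-1 subunit, was at 87.5, 88.7 and 88.9 CPM with GFP and 15.5, 14.6 and 15.6 CPM with shScr (log2 −2.53, SE 0.052, adjusted p = 1.36e-19), and its spread within groups was small. Of members picked after their values were seen, Ier2 had a log2 fold change of −2.53, Myc of −2.07, Zfp36, which destabilises AU-rich messages, of −1.50, Jun of −0.64 and the phosphatase Dusp1 of −0.99. Jund, picked as the one member that was higher (log2 0.16, SE 0.066, adjusted p = 0.0489), overlapped between the groups, and no member of the list was higher under upper quartile scaling, in DESeq2, with a stricter filter on low counts or without GFP replicate 2 or 3 or shScr replicate 2 or 3. The plot of the highest and lowest genes holds 4 immediate early genes among its 12 lowest.

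**Figure D2:**
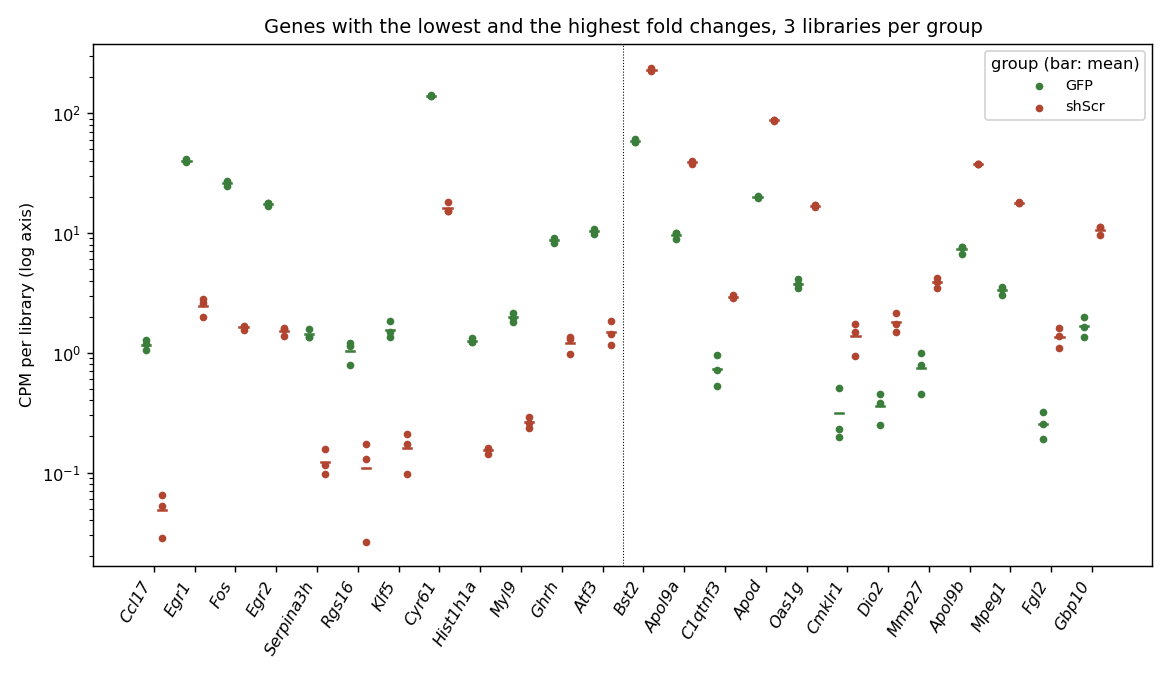
TMM-scaled CPM per library (log axis) of the 12 genes with the lowest and the 12 with the highest log2 fold change of shScr over GFP among called features that averaged 20 or more counts and whose groups were apart; points are the 3 libraries of a group and bars their mean. The GFP and shScr points are separate for every gene, as the choice of genes required, and the immediate early gene Egr1 lies at 38.7–41.5 CPM with GFP and 2.01–2.78 CPM with shScr.

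Targets of Srf and YAP and actin genes, which respond to cell tension and serum, were lower in 18 of 23 tested genes and higher in 3 (median −0.56). Cyr61, a secreted matricellular protein and YAP target, had the smallest p of all features: it was at 142, 139 and 138 CPM with GFP and 15.2, 18.1 and 15.3 CPM with shScr (log2 −3.09, SE 0.056, adjusted p = 2.20e-20). Acta2 (smooth muscle actin) was at 50.1, 46.0 and 47.7 CPM with GFP and 12.2, 11.8 and 11.6 CPM with shScr (log2 −2.01, SE 0.061, adjusted p = 4.31e-17). Myl9, a myosin light chain, was scarce, with 103, 73 and 69 counts in the GFP libraries and 9 in each shScr library (log2 −2.91, SE 0.252, adjusted p = 3.34e-09). In all 3 genes the GFP libraries were the higher and did not overlap with the shScr libraries. Abundant cytoskeletal genes moved less: Actb, Actg1 and Srf were picked after their values were seen, and Actb went from 2409–2455 to 1591–1667 CPM (log2 −0.58), Actg1 from 619–651 to 315–331 CPM (−0.97) and Srf itself from 47.0–49.9 to 29.9–32.5 CPM (−0.65). Acta1, skeletal actin, was at 4.09, 3.70 and 4.28 CPM with GFP and 2.61, 3.12 and 3.08 CPM with shScr (log2 −0.45, SE 0.130, adjusted p = 0.00743).

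The CArG box, the site of Srf, was searched in promoters after the immediate early genes had been seen among the lowest. It was found in 6 of the 20 promoters of the actin and Srf list (30.0%, with 20 of its 23 tested genes matched in RefSeq). Of all 32851 promoters 482 (1.47%) held it. That list was drawn up from Srf or YAP targets, so its share says nothing about the difference between the controls. Genes lower by a log2 of at least 1 with shScr held a box in 12 of 327 promoters (3.67%). Those higher by as much held one in 6 of 167 (3.59%, with 134 of 182 genes matched), so the 2 shares were alike. Stretches with the box in capitals are shown for genes that were lower with shScr, 5′ to 3′ on the gene's strand, RefSeq GRCm38.p6.
Egr2, chr10:67537787-67537846, plus strand: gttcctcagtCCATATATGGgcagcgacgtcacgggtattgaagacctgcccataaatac
Srf, chr17:46556195-46556254, minus strand: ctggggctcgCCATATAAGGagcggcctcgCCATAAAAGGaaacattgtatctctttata
Vcl, chr14:20929161-20929220, plus strand: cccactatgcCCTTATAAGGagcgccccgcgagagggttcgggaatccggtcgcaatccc
Myl9, chr2:156775293-156775352, plus strand: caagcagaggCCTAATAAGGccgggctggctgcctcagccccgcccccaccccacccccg
Srf, whose promoter held 2 boxes, fell by 0.65 and Egr2, with 1 in this promoter, fell by 3.50 on the log2 scale. Whether the number of boxes goes with the size of the difference was not tested. Vcl (vinculin), which links actin to cell contacts, had a log2 fold change of −0.60 and was picked because its promoter held a box. Another RefSeq promoter of Egr2 held no box, and a further one held a different box that is not shown. No box lay in the 250-base windows of Fos, Junb, Cyr61, Acta2 or Atf3.

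Genes of TGF-beta and BMP signalling were lower in 18 of 25 tested and higher in 5 (median −0.38). Id3 and Id1, inhibitors of bHLH factors that BMP and serum induce, were at 41.2, 45.2 and 43.4 and 37.2, 42.9 and 40.0 CPM with GFP and at 8.05, 8.93 and 9.39 and 15.7, 15.6 and 16.8 CPM with shScr, without overlap. Their log2 fold changes were −2.29 (SE 0.069, adjusted p = 4.14e-17) and −1.31 (SE 0.065, adjusted p = 2.23e-13). The receptor gene Tgfbr2 (0.38), the mediator Smad3 (0.38) and the ligand Tgfb3 (0.69), picked after their values were seen, were among the 5 that were higher, so the list held log2 fold changes on both sides of 0.

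Genes of cell division were lower with shScr. None of 39 tested genes of mitosis and the kinetochore was higher and 35 were lower (median −0.85), and of 29 genes of DNA replication none was higher and 23 were lower (median −0.38). Mki67, the antigen of cycling cells, was at 13.8, 14.5 and 14.1 CPM with GFP and 4.30, 4.36 and 4.11 CPM with shScr, and Top2a, which untangles chromosomes, at 28.1, 26.3 and 27.2 CPM and 11.5, 10.4 and 12.9 CPM. The groups were apart in both, and all levels were low against those of adipocyte genes. The log2 fold changes were −1.72 (SE 0.087, adjusted p = 3.40e-13) and −1.23 (SE 0.074, adjusted p = 7.03e-12). The helicase subunits Mcm5 and Mcm6 had log2 fold changes of −1.53 (SE 0.112, adjusted p = 2.03e-10) and −1.22 (SE 0.095, adjusted p = 5.59e-10), from 8.79–9.93 to 2.62–3.55 CPM and from 20.8–21.2 to 7.51–11.0 CPM. Preadipocyte and fibroblast markers, the list of the cell type that could still divide, summed to 1297–1366 CPM with GFP and 1403–1469 CPM with shScr. Of 14 tested 4 were higher and 4 lower (median −0.03), with log2 fold changes from −0.87 to 1.16. Pdgfra, a receptor of adipocyte progenitors, rose by 0.73 (SE 0.04, adjusted p = 1.58e-12) and Ly6a (Sca-1), which interferon also induces, by 1.16 (SE 0.061, adjusted p = 6.68e-13). The share of the culture that was undifferentiated was not tested.

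Clustered histone genes, whose messages are made in S phase and mostly lack a poly(A) tail, were lower in 23 of 38 tested and higher in 4 (median −0.77). Hist1h1a had 59, 53 and 43 counts in the GFP libraries and 5, 6 and 5 counts in the shScr libraries (log2 −3.0, SE 0.308, adjusted p = 4.93e-08). Hist1h1b went from 6.88, 5.93 and 5.92 to 1.35, 2.29 and 2.59 CPM (log2 −1.59, SE 0.158, adjusted p = 2.87e-08), and Hist1h1d from 38.6, 41.6 and 37.5 to 21.6, 19.5 and 20.1 CPM (log2 −0.94, SE 0.06, adjusted p = 2.27e-11). These linker histone genes were thus all low with shScr, but Hist1h1c, the linker gene that is expressed outside S phase and was picked after its values were seen, was at 136, 133 and 125 CPM with GFP and 138, 138 and 148 CPM with shScr (log2 0.11, adjusted p = 0.044). Core histone genes are near-identical copies, so their single values are uncertain.

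Genes of inflammation other than interferon were mostly lower with shScr. NF-kB subunits and inhibitors were lower in 12 of 19 tested and higher in 2 (median −0.36), chemokines and cytokines in 18 of 28 against 2 (−0.53), and acute phase genes in 11 of 18 against 3 (−0.73). Relb, a subunit of the noncanonical pathway, was at 34.7, 29.7 and 34.5 CPM with GFP and 11.5, 11.0 and 12.1 CPM with shScr (log2 −1.51, SE 0.073, adjusted p = 1.77e-13), and the inhibitor Nfkbie at 12.6, 13.0 and 17.7 and 3.75, 2.50 and 2.59 CPM (−2.28, SE 0.144, adjusted p = 1.75e-11). Ccl17, a T cell chemokine, was the lowest of all genes named by the rule, with 50, 51 and 42 counts in the GFP libraries and 1, 2 and 2 counts in the shScr libraries (log2 −4.50, SE 0.408, adjusted p = 7.05e-09). Ccl2, which attracts monocytes, was at 19.2, 23.6 and 21.8 CPM with GFP and 5.10, 4.81 and 4.24 CPM with shScr (log2 −2.17, SE 0.094, adjusted p = 2.51e-14). Csf1, the macrophage growth factor, was at 133, 128 and 132 CPM and 54.0, 63.2 and 58.8 CPM (−1.15, SE 0.051, adjusted p = 3.48e-14). In each of these the GFP libraries were higher without overlap.

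Among the lowest cytokines, Csf2 had 28, 14 and 24 counts in the GFP libraries and none in the shScr libraries, so with a floor of 3 counts over the group it was at least 18.5-fold lower; it was picked after its values were seen. Traf1, an NF-kB target with 36, 47 and 20 counts against 1 in each shScr library, was likewise picked. Not every chemokine was lower, as 3 members picked after their values were seen show. Ccl8 (log2 1.56) and Ccl5 (1.39), both also induced by interferon, were the 2 that were higher. Cxcl10, another chemokine that interferon induces, was not called (log2 0.03, SE 0.127, adjusted p = 0.889). Of acute phase genes, Serpina3h had 75, 54 and 48 counts with GFP and 4, 6 and 3 counts with shScr (log2 −3.48, SE 0.321, adjusted p = 9.66e-09). Lrg1, a secreted glycoprotein that interleukin 6 induces, went from 35.0, 34.2 and 36.9 to 8.34, 9.46 and 9.55 CPM (log2 −1.95, SE 0.07, adjusted p = 8.85e-16) and Ptx3, a pattern recognition molecule, from 43.7, 46.5 and 42.9 to 13.6, 14.7 and 13.8 CPM (−1.66, SE 0.061, adjusted p = 1.18e-15).

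Hypoxia and mitochondrial genes moved in opposite directions. Of 28 tested genes of the hypoxia response 22 were lower with shScr and none higher (median −0.44), and their summed level was 5521, 5611 and 5544 CPM with GFP and 3435, 3383 and 3380 CPM with shScr. Egln3, a prolyl hydroxylase that hypoxia-inducible factor induces, was at 219.7, 218 and 211 CPM in the GFP and 62.0, 62.1 and 64.2 CPM in the shScr libraries, and Ero1l, an oxidase of protein folding, at 723, 741 and 727 CPM and 248, 235 and 231 CPM. Every shScr library was far lower than every GFP library in both. The log2 fold changes were −1.78 (SE 0.043, adjusted p = 9.98e-19) and −1.61 (SE 0.038, adjusted p = 9.75e-19). Slc2a1 (GLUT1), the insulin-independent glucose transporter, went from 169, 159 and 171 to 68.1, 68.5 and 68.5 CPM (log2 −1.28, SE 0.044, adjusted p = 5.25e-16). Vegfa (log2 −0.20) and Hif1a (−0.12), picked after their values were seen, moved little. Glycolysis genes were lower in 12 of 22 tested and higher in 5 (median −0.20). The exception with the smallest p was Ldhb, the lactate dehydrogenase subunit of oxidative tissue, which rose from 188, 187 and 192 to 388, 386 and 389 CPM (log2 1.04, SE 0.038, adjusted p = 1.07e-15), while Ldha, the subunit of glycolytic tissue, picked for comparison, had a log2 fold change of −0.77.

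The respiratory chain and ATP synthase were higher with shScr in 74 of 77 tested genes and lower in none. Their median was 0.35, with log2 fold changes from −0.01 to 0.81. Complexes II and III were higher in all 13 (median 0.41), complex I in 34 of 35 (0.34) and complexes IV and V in 27 of 29 (0.35). Sdhb, the iron-sulfur subunit of complex II, was at 176, 194 and 177 CPM with GFP and 275, 262 and 280.3 CPM with shScr (log2 0.58, SE 0.044, adjusted p = 3.37e-10). Cox8b, a cytochrome oxidase subunit of muscle and brown fat, rose from 66.3, 72.7 and 68.7 to 115, 118 and 129 CPM (log2 0.81, SE 0.049, adjusted p = 8.78e-12). All 16 genes of the TCA cycle were higher (median 0.36), among them Idh3a, a subunit of isocitrate dehydrogenase, from 323–347 to 461–480.4 CPM (log2 0.50, SE 0.038, adjusted p = 4.24e-10). Fatty acid oxidation and ketogenesis were higher in 22 of 29 and lower in 3 (0.35), with log2 fold changes from −0.85 to 0.87. Among them Acat1, the last thiolase of the pathway, rose by 0.53 (SE 0.038, adjusted p = 1.77e-10). Mitochondrial ribosomal proteins were higher in 46 of 69 and lower in 3 (0.20). Ppargc1a (PGC-1alpha), the coactivator of mitochondrial genes, was at 72.7, 73.5 and 73.4 CPM with GFP and 127, 134 and 124 CPM with shScr (log2 0.82, SE 0.044, adjusted p = 9.32e-13), and its partner Esrra at 115, 109 and 110.2 and 144, 152 and 159 CPM (0.45, SE 0.046, adjusted p = 4.22e-08).

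Length moved with the log2 fold change over all features. Split into 4 classes of equal size by feature length, added after the short mitochondrial genes had been seen to rise together, the median log2 fold change was 0.06 in the shortest class (51 to 1968 bases), 0.01 in the second, −0.02 in the next and −0.05 in the longest (5356 to 108800 bases). Called higher were 26.7, 24.3, 21.8 and 19.3% of the features of these classes, from short to long, and called lower 14.1, 20.2, 24.4 and 30.0%. These medians are smaller than those of the mitochondrial lists, and the part of length or RNA quality in them was not tested.

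Lysosomal genes were higher in 24 of 31 tested and lower in 3 (median 0.25). Lamp1, a membrane glycoprotein of the lysosome, rose from 1688, 1720 and 1728 to 2554, 2486 and 2480 CPM (log2 0.56, SE 0.031, adjusted p = 2.04e-12) and Hexa, a hexosaminidase subunit, from 216, 216 and 211 to 350.1, 323 and 344 CPM (0.67, SE 0.04, adjusted p = 7.17e-12). Neither overlapped between the groups.

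Adipocyte lists had members on both sides. Lipogenesis and triglyceride synthesis had 7 higher and 6 lower of 19 tested, lipolysis, lipid droplets and uptake 6 and 8 of 23, adipocyte transcription factors 5 and 6 of 16, and insulin and GLUT4 signalling 5 and 10 of 25. Their medians lay between −0.04 and 0.09. Agpat2, an acyltransferase of triglyceride synthesis, rose from 842, 849 and 842 to 1636, 1555 and 1647 CPM (log2 0.94, SE 0.034, adjusted p = 8.97e-16), and Thrsp, a lipogenic regulator, from 182, 194 and 187 to 362, 346 and 367 CPM (0.94, SE 0.041, adjusted p = 2.31e-14). Lpl (lipoprotein lipase), among the most abundant adipocyte messages, was at 7710, 7906 and 7702 CPM with GFP and 5529, 5464 and 5081 CPM with shScr (log2 −0.53, SE 0.032, adjusted p = 7.03e-12). Plin1, the coat protein of the fat droplet, was also lower (−0.35, SE 0.038, adjusted p = 9.33e-08; 1583–1628 CPM with GFP and 1202–1336 CPM with shScr). Adipocyte genes were therefore neither all lower nor all higher. Summed levels, which abundant genes dominate, were lower with shScr for lipogenesis (45380–46390 CPM with GFP, 39180–40970 with shScr) and for lipolysis, droplets and uptake (26840–27230 and 23150–23750). They were also lower for insulin and GLUT4 signalling (4295–4361 and 4039–4118), whereas those of adipocyte transcription factors overlapped (1681–1703 and 1690–1717).

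Of the transcription factors, Klf15, which favours adipogenesis, rose by 0.57 (SE 0.051, adjusted p = 4.70e-09), and Klf4, which is induced early in differentiation, fell by 1.49 (SE 0.111, adjusted p = 2.91e-10), from 10.7–13.3 to 3.73–5.09 CPM. Klf5 was lower still but scarce, with 64, 60 and 65 counts with GFP and 6, 8 and 3 counts with shScr (log2 −3.21, SE 0.316, adjusted p = 2.52e-08). Pparg, the master regulator, picked after its values were seen, had a log2 fold change of −0.23. In insulin signalling, Akt2, the kinase isoform of insulin action on glucose uptake, rose from 447, 422 and 435 to 582, 585 and 591 CPM (log2 0.44, SE 0.036, adjusted p = 1.71e-09), and the growth factor Igf1 fell by 0.59 (SE 0.046, adjusted p = 7.13e-10).

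Adipokines were higher in 4 of 13 and lower in 5 (median 0.01). Apln (apelin) was at 62.7, 63.3 and 63.1 CPM with GFP and 34.9, 34.6 and 33.1 CPM with shScr (log2 −0.87, SE 0.047, adjusted p = 1.21e-12). Of 11 thermogenic and beige regulators 6 were higher and 1 lower (median 0.22). Dio2, which activates thyroid hormone in brown fat, was scarce, with 18, 10 and 16 counts with GFP and 61, 81 and 46 counts with shScr (log2 2.33, SE 0.259, adjusted p = 1.54e-07). Ucp1, the uncoupling protein, picked for its role, was too scarce to be tested, at 0–0.0745 CPM with GFP and 0–0.0647 CPM with shScr; Ucp3, its relative, rose from 48.9, 43.9 and 48.4 to 74.2, 73.2 and 78.8 CPM (log2 0.68, SE 0.05, adjusted p = 2.22e-10).

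Cholesterol synthesis and uptake had 6 higher and 8 lower genes of 23 (median −0.05), and efflux and LXR targets 4 and 2 of 11 (0.10). Mylip, which degrades the LDL receptor, rose by 0.66 (SE 0.043, adjusted p = 2.85e-11), from 89.6–92.5 to 139–148 CPM. Collagens and matrix genes were split, 15 higher and 14 lower of 39 (median −0.04). Within them Lum (lumican) was at 17.6, 20.5 and 19.4 CPM with GFP and 62.8, 57.2 and 55.8 CPM with shScr (log2 1.62, SE 0.062, adjusted p = 2.54e-15), and Mmp2, a gelatinase, at 143, 137 and 141 and 329, 351 and 348 CPM (1.30, SE 0.041, adjusted p = 1.11e-16).

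Some of the 12 highest and 12 lowest genes fell in none of the groups so far. Apod, a lipid-binding apolipoprotein, rose from 20.3, 20.1 and 19.6 to 86.0, 87.4 and 87.8 CPM and had one of the smaller SE of the high genes (log2 2.13, SE 0.048, adjusted p = 3.92e-19). Fgl2, an interferon gamma-inducible fibrinogen-like protein, had 9, 13 and 9 counts with GFP and 56, 53 and 34 counts with shScr (2.44, SE 0.289, adjusted p = 4.06e-07). Cmklr1, the chemerin receptor, had 11, 8 and 18 counts against 33, 66 and 46 (2.2, SE 0.325, adjusted p = 8.35e-06). The matrix protease Mmp27 (38, 40 and 16 counts against 148, 148 and 107; log2 2.35, SE 0.197, adjusted p = 2.00e-09) and the secreted C1qtnf3 (25, 29 and 34 counts against 101, 110 and 93; 2.03, SE 0.201, adjusted p = 2.73e-08) were also scarce. At the low end, Rgs16, a brake on G protein signalling, had 57, 32 and 40 counts against 6, 1 and 4 (−3.25, SE 0.405, adjusted p = 7.84e-07), and Ghrh, growth hormone-releasing hormone, went from 8.64, 9.11 and 8.24 to 0.974, 1.31 and 1.36 CPM (−2.83, SE 0.133, adjusted p = 1.00e-13). Except for Apod and Ghrh, these are genes with few counts, whose SE is several times that of the abundant genes.

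Stress lists differed in how far they moved. Of 22 genes of the integrated stress response and amino acid supply 15 were lower and 2 higher (median −0.40). Slc7a11, the cystine transporter, was at 31.5, 30.4 and 30.1 CPM with GFP and 13.5, 12.9 and 12.3 CPM with shScr (log2 −1.24, SE 0.063, adjusted p = 4.12e-13), and Ppp1r15a (GADD34), which reverses the block of translation, at 53.9, 51.8 and 57.5 and 21.8, 24.2 and 25.5 CPM (−1.19, SE 0.061, adjusted p = 4.55e-13). Hmox1 (heme oxygenase), which heme and oxidants induce through NRF2, was the NRF2, glutathione and metal response gene with the smallest p, at 467, 456 and 454 CPM with GFP and 145, 151 and 152 CPM with shScr (−1.62, SE 0.039, adjusted p = 1.01e-18), yet that list was split, 10 higher and 12 lower of 28 (median −0.02). Genes of ER chaperones and the unfolded protein response were lower in 9 of 23 and higher in 3 (median −0.07). The lower ones included Xbp1, a transcription factor of that response (−0.84, SE 0.042, adjusted p = 3.07e-13), and the chaperone Hspa5, also called BiP (−0.64, SE 0.035, adjusted p = 1.50e-12). Heat shock proteins were lower in 8 of 15 and higher in 3, with Hspa1b at 15.7, 15.1 and 15.0 CPM with GFP and 7.54, 8.46 and 7.64 CPM with shScr (−0.94, SE 0.078, adjusted p = 1.72e-09). Targets of p53 were lower in 12 of 23 and higher in 3 (median −0.24); Plk2 had a log2 fold change of −1.58 (SE 0.053, adjusted p = 2.45e-16) and Btg2, an antiproliferative gene that is also counted among the immediate early genes, one of −1.57 (SE 0.063, adjusted p = 7.23e-15).

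Among smaller lists, clade B serpins, intracellular protease inhibitors, were lower in 5 of 11 and higher in 1 (median −0.76). Serpinb9b fell by 1.27 (SE 0.130, adjusted p = 4.73e-08), from 4.70–5.31 to 2.00–2.23 CPM, and Serpinb8 rose by 0.45 (SE 0.059, adjusted p = 2.04e-06). Clock genes had 6 higher and 5 lower of 15 (median 0.03); the repressor Nfil3 fell by 0.77 (SE 0.068, adjusted p = 5.02e-09). Cytosolic ribosomal proteins were mostly not called, 14 higher and 9 lower of 74 (median 0.05), and their balance flipped to 7 higher and 15 lower under upper quartile scaling. Of 5 genes that mark RNA isolation and ribosomal depletion 1 was called: Malat1, a nuclear RNA, was at 15920, 15880 and 15580 CPM with GFP and 17430, 17380 and 16920 CPM with shScr (log2 0.13, SE 0.025, adjusted p = 0.000185), and Rmrp, the RNA of RNase MRP, differed by −0.15 (SE 0.061, adjusted p = 0.0565) with overlapping groups. Of the 4 endothelial and 4 muscle markers tested, 1 each was called, the endothelial marker Tek and the muscle marker Acta1. Tek, at 0.312–0.397 CPM with GFP and 0.0324–0.289 CPM with shScr, lost its call without any 1 of 5 libraries.

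The hairpin against Dnmt3a and the Dnmt3a vector form another pair of a hairpin and a pCDH construct, which shares no library with the 2 controls but also differs in Dnmt3a, so an effect of the vector class and one of Dnmt3a cannot be told apart in it. In that pair 6716 of 14096 tested features were called (47.6%), 3385 higher (24.0%) and 3331 lower (23.6%) with shDnmt3a. A log2 difference of 1 or more in size was reached there by 503 called features (3.57%), 360 of them higher (2.55%) and 143 lower (1.01%). Over the 13889 features tested in both, 2343 were called in the same direction, which is 37.0% of the 6341 called between the controls and 35.3% of the 6638 called between shDnmt3a and Dnmt3a, and 1429 in opposite directions (22.5% and 21.5%). Of the 3234 called higher with shScr, 1179 (36.5%) were also called higher with shDnmt3a and 825 (25.5%) lower. Of the 3107 called lower, 1164 (37.5%) were also lower and 604 (19.4%) higher. Counts of list members in the 2 pairs are read against these. Among the 189 features higher by a log2 of at least 1 with shScr, 129 (68.3%) were also higher with shDnmt3a and 5 (2.65%) lower. Of the 322 lower by at least 1, 159 (49.4%) were also lower and 56 (17.4%) higher. A log2 difference of at least 1 in both pairs was reached by 59 features that were higher and 75 that were lower with both hairpins, by 14 that were lower with shScr and higher with shDnmt3a, and by none the other way. Differences between the effects in the 2 pairs were not tested.

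**Figure D3:**
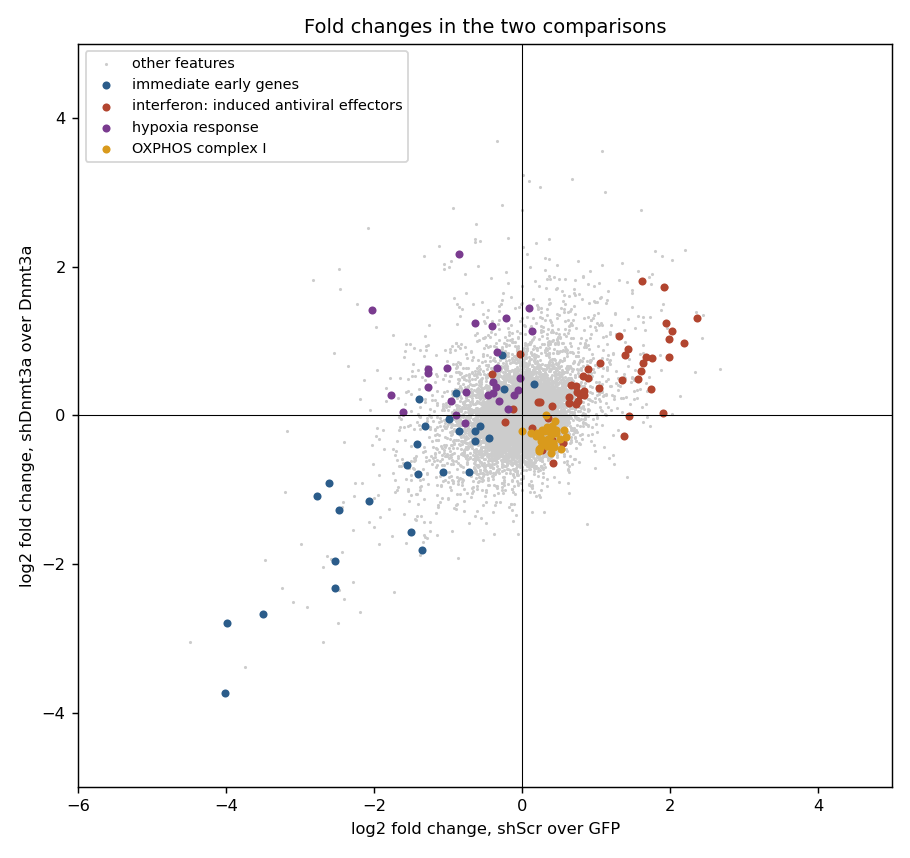
Log2 fold change of shScr over GFP (x axis) against that of shDnmt3a over Dnmt3a (y axis) for the features tested in both pairs, of which 13886 are drawn and 3 lie outside the axes; grey points are all features and coloured points members of 4 lists. Immediate early genes lie mostly lower left, antiviral effectors mostly upper right, hypoxia genes upper left and complex I genes lower right.

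Immediate early genes recurred: 19 of 28 were lower in both pairs, 3 were lower with shScr and higher with shDnmt3a, and 1 was higher in both. In the second pair Egr1 was at 34.6–36.1 CPM with Dnmt3a and 2.28–3.17 CPM with shDnmt3a (log2 −3.74, adjusted p = 3.74e-25), Fos at 23.1–26.0 and 3.40–4.00 CPM (−2.79, adjusted p = 5.29e-22), Junb at 65.5–74.2 and 17.5–18.4 CPM (−1.95, adjusted p = 4.47e-23) and Egr2 at 11.4–12.9 and 1.78–2.05 CPM (−2.67, adjusted p = 1.11e-18). The levels in the pCDH groups, GFP and Dnmt3a, were thus alike in being high and those in the hairpin groups low. Cyr61 (−2.51), Acta2 (−1.50), Id3 (−2.25) and Myl9 (−2.57) followed the same order in the second pair, and of 22 actin and Srf genes tested in both, 14 were lower in both. For clustered histones this was 16 of 37 and for mitosis genes 15 of 38, with 2 mitosis genes opposite. Mki67 was at 6.30–8.19 CPM with Dnmt3a and 3.29–3.67 CPM with shDnmt3a, both below the 13.8–14.5 CPM of GFP.

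Antiviral effectors mostly recurred in direction, while MHC class I genes mostly did not. Of 49 effectors 35 were higher in both pairs, 6 were higher with shScr and lower with shDnmt3a and 1 the reverse, and the list's median in the second pair was 0.39 beside 0.89 between the controls. Summed over the list, the level was 2547, 2500 and 2525 CPM in the Dnmt3a libraries and 3006, 3026 and 3025 CPM in the shDnmt3a libraries, beside the 2864, 2882 and 2847 CPM of the GFP libraries and the 5367, 5216 and 5333 CPM of the shScr libraries. Bst2 was at 54.6–58.4 CPM with Dnmt3a and 114–118 CPM with shDnmt3a (log2 1.02, adjusted p = 1.88e-19), which was higher but well short of shScr. Ifit3 did not differ by the test, at 68.7–71.5 and 66.3–76.9 CPM (0.03, adjusted p = 0.65). Of 22 MHC class I genes 4 were higher in both pairs and 4 were higher with shScr and lower with shDnmt3a. Over all 13889 features tested in both pairs these counts were 1179 and 825. H2-D1 was at 1434–1523 CPM with Dnmt3a and 1422–1456 CPM with shDnmt3a (−0.05, adjusted p = 0.202).

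**Figure D4:**
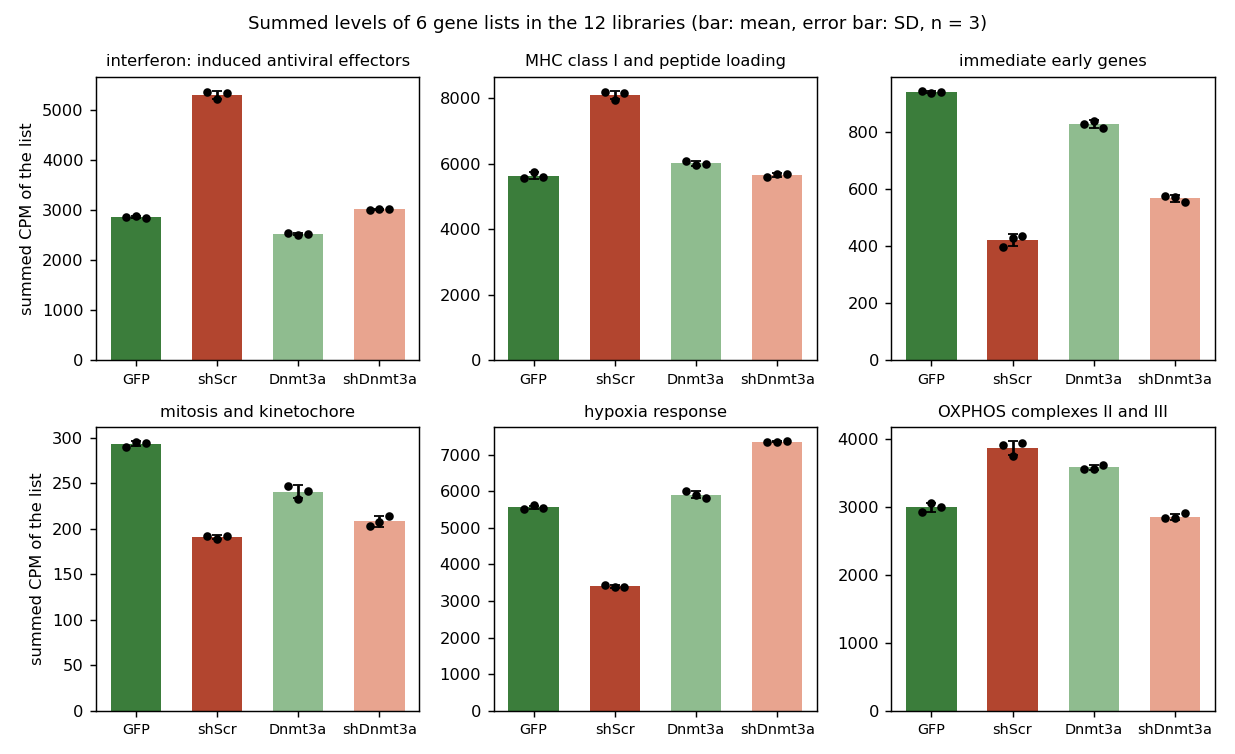
Summed TMM-scaled CPM of 6 gene lists in the 12 libraries, by group; bars are the mean of 3 libraries, error bars the SD and points the libraries. Antiviral effectors are highest in shScr, immediate early genes are lower in both hairpin groups than in both pCDH groups, and hypoxia genes are lowest in shScr and highest in shDnmt3a.

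Most genes of the hypoxia response, the respiratory chain and the TCA cycle went opposite ways in the 2 pairs. Of 28 hypoxia genes 18 were lower with shScr and higher with shDnmt3a and none moved the same way in both, and of complex I genes 32 of 35, of complexes II and III 13 of 13, of complexes IV and V 26 of 29 and of TCA cycle genes 15 of 16 were higher with shScr and lower with shDnmt3a. Other mitochondrial lists did so less completely, with 24 of 69 mitochondrial ribosomal proteins and 10 of 29 genes of fatty acid oxidation and ketogenesis, of which 6 were higher in both pairs. Summed hypoxia levels were 6017, 5887 and 5816 CPM with Dnmt3a and 7347, 7349 and 7373 CPM with shDnmt3a, and those of complexes II and III 3558, 3557 and 3616 CPM and 2826, 2830 and 2904 CPM, beside 2927, 3054 and 2989 CPM with GFP and 3910, 3746 and 3933 CPM with shScr. Egln3 was at 248–263 CPM with Dnmt3a and 300.4–317 CPM with shDnmt3a (0.27, adjusted p = 1.13e-07), so the shScr libraries, at 62.0–64.2 CPM, stood below the other 3 groups. Sdhb was at 229.8–248 CPM with Dnmt3a and 174–179 CPM with shDnmt3a (−0.46, adjusted p = 6.85e-12). For Sdhb the shDnmt3a libraries lay near the 176–194 CPM of GFP and the Dnmt3a libraries between GFP and shScr. Ghrh was one of the 14 features with a log2 difference of at least 1 that was lower with shScr and higher with shDnmt3a: 6.90–8.98 CPM with Dnmt3a and 26.7–30.5 CPM with shDnmt3a (1.82, adjusted p = 3.75e-18).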

How the data were processed

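Total RNA of 3T3-L1 adipocytes was sequenced on a HiSeq2500 from 100 ng per library, after ribosomal RNA depletion (Ribo-Zero Gold) and TruSeq RNA library preparation. By the study's methods and its submitters' processing notes, reads were demultiplexed with bcl2fastq (2.17.1.14), aligned to mm9 with TopHat2 (2.0.14), handled with Picard (2.2.4) and SAMtools (0.1.19) and assigned by featureCounts (1.4.6) to an annotation altered to reduce overlapping transcripts. The authors deposited raw counts, whole numbers for each feature, with no normalization. Whether counting used strand, and the version of edgeR that the authors used, are not given in the sources used here, so overlapping and antisense genes are uncertain. Of 27473 features 7094 had no count, and 789 symbols had more than 1 feature; the one with the most counts on average stands for the gene.

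Groups were taken from the labels. Counts were tested with edgeR (4.0.16, R 4.3.3) by glmQLFit and glmQLFTest on the 6 libraries of a comparison, with TMM factors, features kept by filterByExpr (minimum count 10) and Benjamini-Hochberg adjustment over all features tested. The common biological coefficient of variation was 4.44% between the controls and 3.51% in the other pair. Each SE was derived from the F statistic. CPM were scaled over all 12 libraries. Total counts of 29084732 to 47341091 per library over the 12 libraries make counting error small for all but scarce genes, for which raw counts are given. Replicates of a group differed by more than sampling noise (chi-square per degree of freedom 2.52 to 10.7 over the 4 groups), so none was counted as a duplicate.

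Named genes were the 12 highest and 12 lowest log2 fold changes among called features with 20 or more counts on average whose groups were apart, the 2 members of each of 50 lists with the smallest p, interferon genes called against their list's median, and Dnmt3a; others are marked as picked. A few genes that the rule names are not reported here. The compared groups and the lists were chosen with earlier results of these data known. Promoters came from RefSeq (GRCm38.p6), which matched 10151 of 13901 tested symbols (73.0%). Shares are given for lists with at least 80% matched and, for the CArG box, also for the immediate early list and the strongly different genes. The procedure was tested on simulated data. Alternatives were RLE and upper quartile factors, DESeq2 (1.42.0), the exact test, other filters and thresholds, a replicate block, counts summed by symbol, all 12 libraries fitted together and leaving out each library.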

Additional observations from a re-analysis of the deposited data

How the results depend on the processing

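Between the controls, the numbers of genes called higher and lower stayed within 1.5 times the reported 3251 and 3136 under every alternative run. With DESeq2 they were 3021 and 2842, and with upper quartile factors 2673 and 3772, where the median log2 fold change of all features was −0.04. Leaving out 1 library gave 2796 to 3127 higher and 2811 to 2971 lower genes, 204 to 221 strongly higher, 367 to 418 strongly lower, and 2106 to 2264 called the same way and 1233 to 1376 called opposite ways in both pairs. The 1 count over all genes that moved further was that of genes called opposite ways in both pairs, 921 at an adjusted p under 0.01 against 1429; the threshold itself sets this.

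Replicates of the 2 controls that share a number did not deviate together (r over genes −0.314, −0.150 and −0.0147), so the numbers were not taken as pairs. For replicates of unlike number r ran from −0.123 to 0.263 (GFP replicate 1 with shScr replicate 2). Whether libraries of the 2 controls shared a batch was not tested. With a replicate block 2847 genes were higher and 2827 lower, 202 and 350 by a log2 of at least 1, with 2122 called the same way and 1230 opposite ways in both pairs; in the other pair 3349 were higher and 3300 lower.

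Of 2263 values of the genes named by rule under alternatives none was reversed, 19 lost their call and 7 gained one. Calls were lost for Jak1, Samhd1 and Tek and gained for Rmrp and Des. Of 1800 list counts 1700 stayed within 1.5 times. Under upper quartile factors the NRF2 list had 6 higher genes and not 10, the DNA methylation list 11 lower and not 7, and cytosolic ribosomal proteins 7 higher and 15 lower and not 14 and 9. Scaling without the interferon, MHC class I, immunoproteasome, OXPHOS and TCA cycle lists was added after seeing the data.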
